A study of Anopheles gambiae with 36 samples.

Results

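Transcripts of 6 heat shock protein genes were followed in the ear of the malaria mosquito Anopheles gambiae over the day. The genes were taken by identifier: AGAP004581, AGAP004582 and AGAP004583, called here the Hsp70 cluster, AGAP006958 (Hsp83), AGAP004192 (HSC70-3) and AGAP002076 (HSC70-4). Each was represented by 1 transcript, which gives 6 of the 15863 transcripts in the table of estimated counts. The samples were second antennal segments, without flagella, of males and females of the Kisumu strain. This segment holds the Johnston's organ (JO), the auditory sense organ. Each library came from a pool of 35 mosquitoes that had been kept for 3 days in a cycle of 12 h light to 12 h dark, with ramps of 1 h at dawn and dusk, at a constant 28 °C and 80% relative humidity, and were 3 to 7 days old. They were taken at zeitgeber time (ZT, hours from lights on) 0, 4, 8, 12, 16 or 20, sedated with CO2 and frozen in liquid nitrogen. There were 3 libraries for each sex and time point. The study discarded the male ZT12 library of replicate 3, which left 17 male and 18 female libraries. The sexes had hatched in separate cages, so sex and cage cannot be told apart.

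Hsp70 proteins are chaperones that use ATP to bind and release unfolded stretches of other proteins. In Drosophila, the stress-inducible Hsp70 genes are silent or weakly transcribed in unstressed animals and are switched on when heat shock factor binds to their promoters. Other members of the family, the heat shock cognates, are transcribed without stress. In Drosophila, Hsc70-3 is the chaperone of the endoplasmic reticulum, where secreted and membrane proteins fold, and Hsc70-4 is the main cognate of the cytosol. Hsp83 is the fly Hsp90, a chaperone of kinases and steroid receptors that is abundant without stress and is raised further by heat.

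The libraries held 11074586 to 18254972 counts in males and 9341518 to 17815883 in females. Values are given as normalised counts, the estimated counts divided by a size factor per library, and they are not divided by transcript length, so levels were compared between libraries and not between genes. Markers of eye photoreceptors differed between the sexes, with overlap. Markers of auditory neurons were not checked. All 8 opsin genes had a lower median in males than in females, none was at 0 in any library, and together they took 1.39 to 13.7% of the counts of male libraries (median 4.58%), against 9.37 to 45.6% of those of female libraries (median 27.0%). Orco, the coreceptor of olfactory neurons, had a median of 3.78 normalised counts in males and 28.5 in females. It was at 0 in 2 male libraries and 1 female library. In such pooled tissue, fewer cells of a type and less RNA per cell cannot be told apart. Tests across time points or sexes used edgeR's quasi-likelihood F-test with Benjamini-Hochberg adjustment over every transcript in the test, and a call was made at an adjusted p under 0.05. Nothing in the labels says whether the 3 pools of a group came from separate cages, so p-values measure only the spread between these pools.

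The Hsp70 cluster was low in most libraries and very high in 3 of them. AGAP004581 had 59.0, 111 and 122 normalised counts in the male ZT0 libraries, 51.8, 111 and 54.5 at ZT4, 327, 139 and 24.9 at ZT8, 20.6 and 1224 in the only pair at ZT12, 56.6, 68.0 and 18.1 at ZT16 and 35.0, 43.0 and 50.1 at ZT20. In females the values were 59.1, 35.9 and 53.4 at ZT0, 8872, 267 and 216 at ZT4, 56.1, 4199.5 and 55.7 at ZT8, 11.7, 278 and 104 at ZT12, 64.6, 110.3 and 33.9 at ZT16 and 56.2, 78.9 and 35.4 at ZT20. Each of the 3 high values, in male ZT12 replicate 2, female ZT4 replicate 1 and female ZT8 replicate 2, stood beside replicates of the same sex and hour that were far lower. AGAP004583 was high in the same female libraries, with 6648 normalised counts in female ZT4 replicate 1 and 4072 in female ZT8 replicate 2, while the other 16 female libraries held 4.67 to 219. In male ZT12 replicate 2 it had 191, below the 246 of male ZT8 replicate 1, the highest of the other 16 male libraries.

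AGAP004582 was the transcript with the fewest counts and was highest in the same 3 libraries. It had 343 normalised counts in male ZT12 replicate 2, against at most 49.1 in the other males. In females it had 1069 in ZT4 replicate 1 and 539 in ZT8 replicate 2, against at most 48.5 in the others. It was at 0 in 3 male and 5 female libraries, where a count of 0 allows up to 3 counts. A zero, in replicate 2, stood at female ZT4, the time point that also held the highest value.

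**Figure D1:**
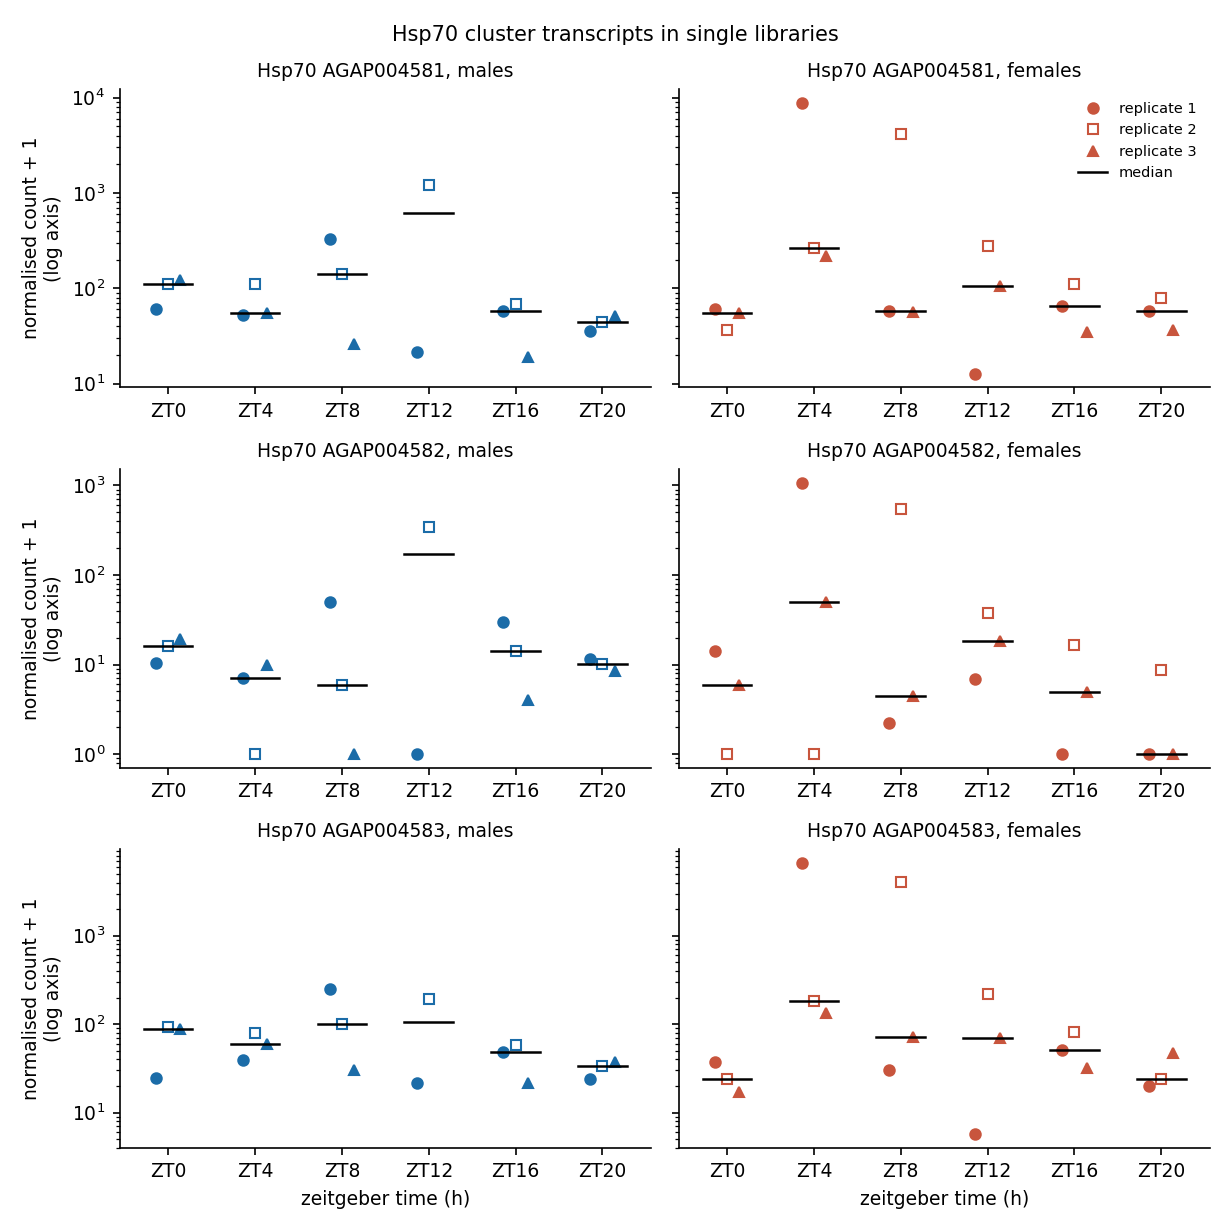
Normalised counts plus 1, on a log axis, of the 3 Hsp70 cluster transcripts in each library, by zeitgeber time (h), males in the left column and females in the right. Symbols mark the replicate number and bars the median of a time point. AGAP004581 reached 1224 in 1 male ZT12 library, 8872 in 1 female ZT4 library and 4199.5 in 1 female ZT8 library.

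Summed over the 3 transcripts, the cluster reached 1758 normalised counts in male ZT12 replicate 2, 16589.6 in female ZT4 replicate 1 and 8810.5 in female ZT8 replicate 2. The other 16 male libraries had a median of 109 and a highest value of 622, and the other 16 female libraries a median of 109 and a highest value of 533. The 3 libraries were thus 16.1-fold, 152-fold and 80.8-fold above the median of the other libraries of their sex, in this order. Few transcripts stood out so far. Of the transcripts with at least 100 normalised counts in the library, 16 of 8381 were at least 10-fold above that median in male ZT12 replicate 2 (0.191%), 107 of 9199 in female ZT4 replicate 1 (1.16%) and 34 of 8936 in female ZT8 replicate 2 (0.38%). The 3 Hsp70 transcripts ranked 5, 12 and 13 by this ratio in the female ZT4 library and 14, 16 and 18 in the female ZT8 library. In the male library AGAP004582 ranked 8 and AGAP004581 11, while AGAP004583 ranked 33 and was below 10-fold, at 4.37-fold with 1 added to both counts. These libraries were chosen after their values were seen, so the ratios are a description. Their opsin share was 2.44% in the male library, 24.1% in the female ZT4 library and 26.6% in the female ZT8 library, each within the range of its sex. The female ZT4 library had the highest Orco value of all 35 libraries, 291 normalised counts, and the part of these levels in the Hsp70 values was not tested.

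The share of each transcript in the summed cluster was also compared. In the 18 other libraries with at least 100 estimated counts over the cluster, AGAP004581 made up 42.8 to 59.4% of the counts (median 53.4%), AGAP004582 at most 21.7% (median 7.37%) and AGAP004583 33.3 to 54.5% (median 40.3%). In female ZT4 replicate 1 AGAP004581 held 53.5% of 14009 estimated counts and in female ZT8 replicate 2 47.7% of 8608, both inside that range. Male ZT12 replicate 2 differed from both female libraries: AGAP004583 held 10.8% of 2480 counts (95% Wilson interval 9.68 to 12.1%), below all 18 libraries, and AGAP004581 held 69.6% (67.8 to 71.4%), above them all. These intervals cover counting error only. Reads of closely related genes were divided among them by the quantification, so the split between the 3 transcripts is less certain than their sum.

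None of the 6 transcripts was called for a difference among the 6 time points in males, where 1.67% of all 12360 transcripts tested were called, and none in females, where 1.23% of 12322 were. At an unadjusted edgeR p under 0.05 were 1143 of 12360 transcripts in males and 1120 of 12322 in females. Of the 6 members, 1 was under it in males and 4 in females. In males this was AGAP004581 (edgeR adjusted p = 0.289). In females these were AGAP004581 (edgeR adjusted p = 0.126), AGAP004582 (0.331), AGAP004583 (0.121) and Hsp83 (0.170). DESeq2's likelihood ratio test called AGAP004581 in males (adjusted p = 0.00466) and Hsp83 in females (adjusted p = 0.00377). It gave no p for AGAP004581 and AGAP004583 in females by its rule on single extreme counts. In both sexes DESeq2 also called more of all transcripts than edgeR did, with the numbers in the closing paragraph. Replicates of the cluster spread widely. At female ZT4, AGAP004581 averaged 3118 ± 4983 normalised counts (SD, n = 3), an SD above the mean. Without the 3 high libraries, an alternative added after seeing the data, the edgeR adjusted p of AGAP004581 was 0.491 in males and 0.481 in females.

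Leaving out 1 library brought some of these time tests past the threshold. Leaving out female ZT8 replicate 2 alone gave edgeR adjusted p-values of 0.0183 for AGAP004581 and 0.0227 for AGAP004583 in females. Leaving out male ZT12 replicate 1, so that the high library stood alone at its hour, gave 0.0253 for AGAP004581 in males. In that fit the lone library is assumed to vary like the other groups. When both sexes shared 1 fit and 1 estimate of the spread, AGAP004581 (adjusted p = 0.0107) and AGAP004583 (0.00457) were called in females.

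Ordered by mean, the Hsp70 cluster was highest at ZT12 in males and at ZT4 in females. In both sexes the highest time point and its neighbour in the order did not differ beyond their spread. The summed cluster averaged 899.6 ± 1214 normalised counts at male ZT12 (SD, n = 2), and the next mean was 307 ± 289 at ZT8 (n = 3). In females it averaged 5812 ± 9334 at ZT4 and 3009 ± 5024 at ZT8 (n = 3 each). The lowest means were at ZT20 in males, 82.4 ± 12.9, and at ZT0 in females, 80.7 ± 25.2 (n = 3 each). Female ZT4 was the only time point at which all 3 libraries exceeded all libraries of ZT0, ZT16 and ZT20 of that sex: its lowest summed value was 396, against a highest of 108 at ZT0, 206 at ZT16 and 109.8 at ZT20. These groups were set against each other after their values were seen, so this is a description. How many of all transcripts separate in this way was not counted.

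Darkness was compared with light as the mean of ZT16 and ZT20 against the mean of ZT4 and ZT8 within each sex. In females, AGAP004581 ran from 33.9 to 110.3 normalised counts in the 6 dark libraries (median 60.4) and 55.7 to 8872 in the 6 light libraries (median 241). Of the 6 light libraries, 4 were above every dark library and 2 were inside the dark range. AGAP004583 ran from 19.2 to 80.3 normalised counts in the 6 dark libraries (median 38.8) and 29.3 to 6648 in the 6 light libraries (median 157), again with 4 light libraries above the dark range. The log2 fold change, dark over light, was -5.02 ± 1.23 for AGAP004581 (edgeR adjusted p = 0.0795), -6.00 ± 1.72 for AGAP004582 (0.160) and -5.43 ± 1.31 for AGAP004583 (0.0746), each with its SE. None of the 6 members was called by edgeR in females, where 0.844% of all transcripts were. An unadjusted edgeR p under 0.05 was found for 4 of 6, against 1011 of 12322 transcripts. DESeq2 called AGAP004582 (adjusted p = 0.0276) and Hsp83 (0.0187) and gave no p for AGAP004581 and AGAP004583. Here too DESeq2 called more of all transcripts than edgeR did, with the numbers in the closing paragraph. With counts summed by gene, AGAP004583 was called in females (edgeR adjusted p = 0.0493). With both sexes in 1 fit AGAP004581 (edgeR adjusted p = 0.0113) and AGAP004583 (0.00585) were called in females. Summed to 1 feature, the cluster had a log2 fold change of -5.23. Leaving out 1 high library at a time, the value for AGAP004581 was -3.19 without female ZT4 replicate 1 (edgeR adjusted p = 0.235) and -2.71 without female ZT8 replicate 2 (0.291). Without the 3 high libraries the log2 fold changes were -0.87 for AGAP004581 (adjusted p = 0.791), -0.93 for AGAP004582 (0.944) and -1.13 for AGAP004583 (0.742).

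In males the Hsp70 transcripts did not pass the test between darkness and light either, and whether this contrast differed between the sexes was not tested. AGAP004581 ran from 18.1 to 68.0 normalised counts in the 6 dark libraries (median 46.6) and 24.9 to 327 in the 6 light libraries (median 82.5). AGAP004583 ran from 20.4 to 56.7 normalised counts in the 6 dark libraries (median 34.4) and 29.5 to 246 in the 6 light libraries (median 68.2). Of the 6 light libraries, 3 were above every dark one for AGAP004581 and 4 for AGAP004583, and the rest were inside the dark range. The log2 fold changes were -1.26 ± 0.71 for AGAP004581 (95% interval -2.78 to 0.27, edgeR adjusted p = 0.613) and -1.25 ± 0.56 for AGAP004583 (-2.45 to -0.04, adjusted p = 0.448). For AGAP004582 it was 0.33 ± 1.12 (-2.07 to 2.73, adjusted p = 0.979). None of the 6 members was called in males by edgeR or DESeq2, against 1.27% of all transcripts by edgeR. An unadjusted edgeR p under 0.05 was found for 1 of 6, against 1304 of 12360 transcripts. The contrast does not include the high male ZT12 library. Over all transcripts tested the median log2 fold change was 0.00 in both sexes, and over the 6 members it was -0.06 in males and -3.02 in females. The female median lay between Hsp83 (-1.01) and AGAP004581 (-5.02), and no member had that value. The Hsp70 transcripts shared the same high libraries, and their values were much smaller without them, as given above.

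Males and females were then set against each other. With time point in the model, none of the 3 Hsp70 transcripts was called between the sexes. The log2 fold change, male over female, was -0.91 ± 0.82 for AGAP004581 (95% interval -2.58 to 0.77, edgeR adjusted p = 0.330), 0.02 ± 0.71 for AGAP004582 (-1.43 to 1.46, 0.986) and -1.16 ± 0.77 for AGAP004583 (-2.74 to 0.41, 0.182). Medians over libraries were close: 56.6 normalised counts of AGAP004581 in males and 61.9 in females, and 47.1 of AGAP004583 in males and 48.5 in females. Leaving out the high library of male ZT12 alone gave -1.71 for AGAP004581 (adjusted p = 0.0486), past the threshold, while leaving out all 3 high libraries gave -0.27 (0.588).

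At single time points the 3 Hsp70 transcripts were called only at ZT4, as part of 4 of 6 members called there, where 27.3% of all transcripts were called. Male over female, the log2 fold change was -5.35 ± 1.58 for AGAP004581 (edgeR adjusted p = 0.0129), -6.11 ± 2.26 for AGAP004582 (0.0449) and -5.23 ± 1.52 for AGAP004583 (0.0120). AGAP004581 had 51.8, 111 and 54.5 in males at this hour, all below the 8872, 267 and 216 of females. The share of all transcripts without overlap at this hour was not counted. Without the high female library the log2 fold changes were -1.73 for AGAP004581 (adjusted p = 0.136), -2.26 for AGAP004582 (0.369) and -1.42 for AGAP004583 (0.258). The test of whether time courses differed between the sexes called none of the 6 members by edgeR, none of the 5 to which DESeq2 gave a p, and 0.00775% of all transcripts by edgeR, that is 1 of 12898. The unadjusted edgeR p was under 0.05 for 3 of 6 members, the Hsp70 transcripts, with adjusted p-values of 0.850 or above. Of all transcripts, 583 of 12898 were under 0.05 unadjusted.

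**Figure D2:**
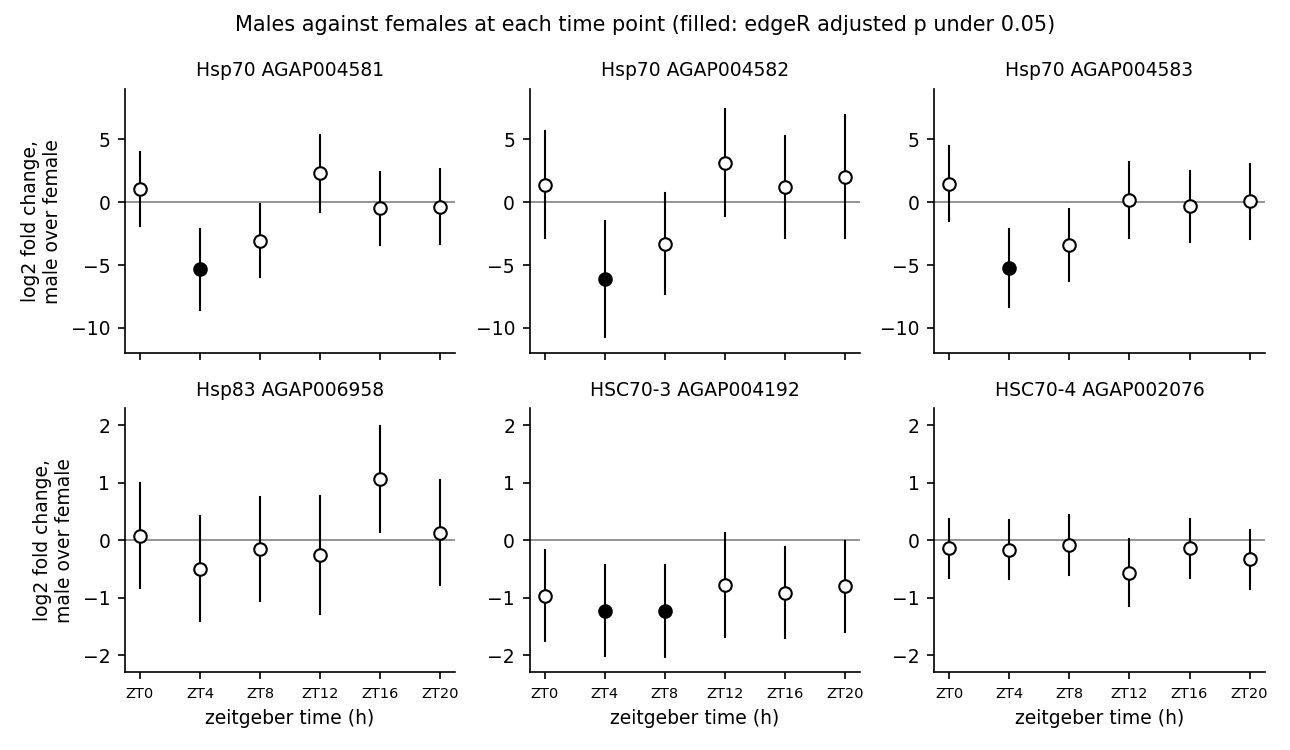
Log2 fold change of males over females for each of the 6 transcripts at each zeitgeber time (h), with 95% intervals from the edgeR fit of 35 libraries. Filled points were called at an adjusted p under 0.05: the 3 Hsp70 transcripts at ZT4 and HSC70-3 at ZT4 and ZT8, all below 0.

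Hsp83, the Hsp90 of Drosophila, was far above the others in 1 of the 3 libraries in which the cluster was high. It had 6340.1, 4718 and 7359 normalised counts at male ZT0, 6927, 11695 and 6748 at ZT4, 4341, 7486 and 3420.5 at ZT8, 3580.1 and 5752 at ZT12, 9391, 2228 and 7707 at ZT16 and 5608, 4017 and 7934 at ZT20. In females it had 6506, 4805 and 6539 at ZT0, 21820.3, 7499.6 and 8122 at ZT4, 4328, 7241 and 6116 at ZT8, 6947, 5532 and 4829.9 at ZT12, 3318, 1573 and 4711 at ZT16 and 5991, 4452 and 6006 at ZT20. The value in female ZT4 replicate 1 was 2.69 times that of the next highest female library, whereas female ZT8 replicate 2 ranked 4 among 18 females and male ZT12 replicate 2 ranked 10 among 17 males. By mean, ZT4 was the highest time point in both sexes. Among females ZT16 was the lowest, and its 3 libraries were below all 3 of ZT4. Both hours were picked by their means, so this separation is a description. The share of all transcripts with such a separation was not counted.

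In females Hsp83 ran from 1573 to 6006 normalised counts in the 6 dark libraries (median 4581) and 4328 to 21820.3 in the 6 light libraries (median 7370.5). All but 1 of the light libraries were above every dark one. The log2 fold change, dark over light, was -1.01 ± 0.28 (95% interval -1.61 to -0.41), with an edgeR adjusted p of 0.149, so it was not called. DESeq2 called it (adjusted p = 0.0187). Without the high libraries it was -0.60 (edgeR adjusted p = 0.447). In males the fold change was -0.08 ± 0.32 (95% interval -0.77 to 0.60, edgeR adjusted p = 0.983), and the light and dark libraries overlapped. Whether this difference itself differed between the sexes was tested only over all time points, in the interaction (edgeR adjusted p = 1).

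A test for rhythms with periods of 8 to 24 h, JTK_CYCLE, called none of the 6 members and none of all transcripts in either sex (0%). With counts summed by gene it called 6 of 10580 genes in females (0.0567%), no member among them, and 0 of 10600 in males. The study ran JTK_CYCLE only on transcripts that had passed its test for time, and it reported cycling transcripts in both sexes. Here every transcript was entered. The exact p was multiplied by the 20 combinations of period and phase, and then adjusted over transcripts. Before the adjustment over transcripts, 354 of 12360 were under 0.05 in males and 560 of 12322 in females. Of the members, none was under 0.05 in males and 1 was in females. This was Hsp83, with a multiplied p of 0.00969 for a period of 24 h and a peak at ZT4, and an adjusted p of 0.513. Without replicate 1, which holds the highest library, the multiplied p was 0.0146, and it was 0.243 without replicate 2 or without replicate 3. Scaling by total counts gave a multiplied p of 0.241.

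**Figure D3:**
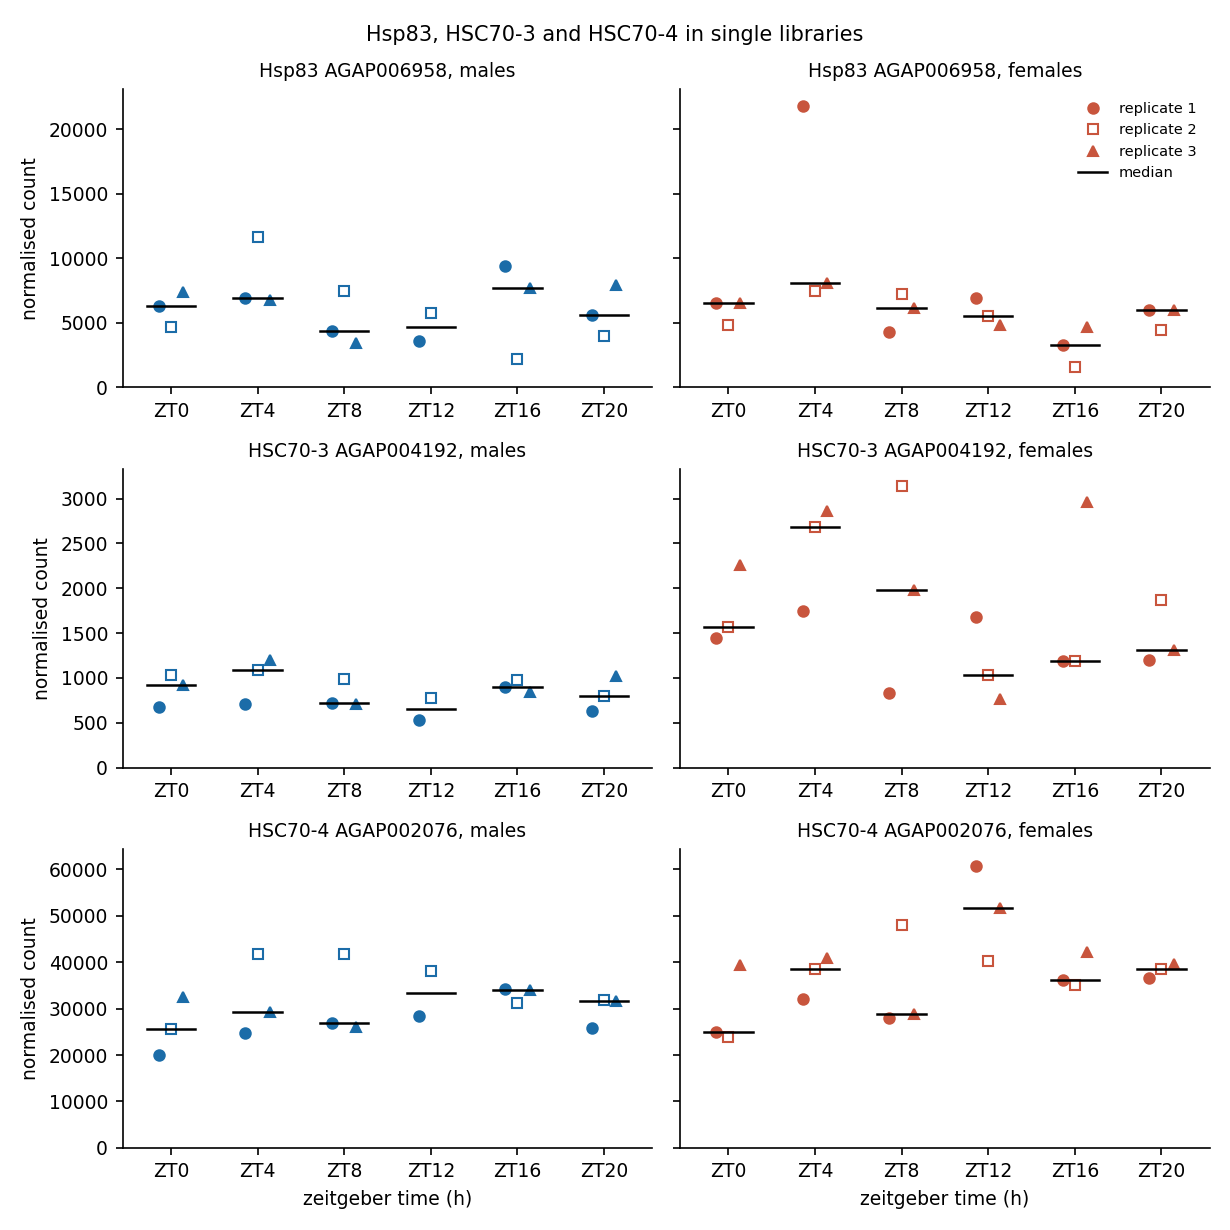
Normalised counts of Hsp83, HSC70-3 and HSC70-4 in each library by zeitgeber time (h), males in the left column and females in the right, each row on a common linear axis from 0. Symbols mark the replicate number and bars the median of a time point. HSC70-3 ran from 531 to 1201 in males, against 767 to 3139 in females.

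Between the sexes, Hsp83 showed no called difference. It averaged 6191 ± 2383 normalised counts across the 17 male libraries and 6463 ± 4150.4 across the 18 female libraries (SD), and 16 of 18 female libraries were within the male range. The log2 fold change was 0.06 ± 0.19 (95% interval -0.33 to 0.46, edgeR adjusted p = 0.782). Scaled by total counts alone, the value was 0.59 (adjusted p = 0.0139), past the threshold. That scaling moved the median over all transcripts to 0.53 on the log2 scale.

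HSC70-3, the endoplasmic reticulum chaperone in Drosophila, was lower in males than in females. It was 1 of 2 members of 6 called between the sexes by edgeR, a share below the 68.4% of all transcripts called. DESeq2 called the same 2 and gave no p for AGAP004581 and AGAP004583. How many of all transcripts DESeq2 called between the sexes is not given here. Male libraries had 674, 1031 and 924 normalised counts at ZT0, 715, 1085 and 1201 at ZT4, 717, 987 and 711 at ZT8, 531 and 776 at ZT12, 903, 979.5 and 839.6 at ZT16 and 636, 796 and 1022 at ZT20. Female libraries had 1441, 1564 and 2257 at ZT0, 1744, 2683 and 2861 at ZT4, 831, 3139 and 1982 at ZT8, 1678, 1031 and 767 at ZT12, 1188, 1192 and 2962 at ZT16 and 1198, 1864 and 1313 at ZT20. The sexes overlapped: 12 of 18 female libraries were above every male library and the other 6 were within the male range. The mean was 855 ± 181 across the 17 male libraries and 1761 ± 744 across the 18 female ones (SD). The log2 fold change, male over female, was -0.998 ± 0.15 (95% interval -1.31 to -0.69, edgeR adjusted p = 8.55e-07).

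The fold change of HSC70-3 was below 0 at each time point. It was -0.96 at ZT0, -1.22 at ZT4, -1.23 at ZT8, -0.78 at ZT12, -0.91 at ZT16 and -0.80 at ZT20, and it was called at ZT4 (edgeR adjusted p = 0.0203) and ZT8 (0.0185). HSC70-3 was the only member called at ZT8, where 29.2% of all transcripts were. None of the 6 members was called by edgeR at ZT0, ZT12, ZT16 or ZT20, where 31.9%, 28.7%, 24.8% and 26.7% of all transcripts were called in this order. At an unadjusted edgeR p under 0.05 there was 1 member at ZT0, 0 at ZT12, 2 at ZT16 and 1 at ZT20. Of all 12898 transcripts, 5458, 5101, 4747 and 4915 were under it, in this order. DESeq2 was not run at single time points. With 3 libraries or fewer per sex, leaving out libraries moved some of these calls. Without female ZT8 replicate 2 and the other high Hsp70 libraries, a lone library stood at male ZT12. The values were then -1.47 at ZT4, -0.80 at ZT8 and -1.003 at ZT0. The call at ZT4 held, that at ZT8 was lost and ZT0 was called. Under scaling by total counts alone HSC70-3 was called at no single time point (lowest edgeR adjusted p 0.103).

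The difference between the sexes was smaller in a model with the opsin level. With the summed opsin level as a covariate, the log2 fold change of HSC70-3 was -0.70 (edgeR adjusted p = 0.0668), below 0 but no longer called. The opsin level itself differed between the sexes, so the parts of opsin level and sex in this value cannot be told apart. Over all transcripts this model called 2064 higher and 1871 lower in males, against 4252 and 4247 in the main model. Scaled by total counts alone it was -0.44 (0.00728), against a median of 0.53 over all transcripts. Leaving out any 1 of the 35 libraries kept the call, with values of -1.12 to -0.96. With the discarded male ZT12 library put back it was -0.60 (0.141), not called. Within each sex HSC70-3 was not called across time (edgeR adjusted p = 0.914 in males and 0.913 in females). By mean it was highest at ZT4 and lowest at ZT12 in both sexes, with 1000.4 ± 254 (n = 3) and 653 ± 173 (n = 2) in males, and 2429 ± 599.8 and 1159 ± 469 (n = 3 each) in females (SD). Dark over light, its log2 fold change was -0.04 ± 0.17 in males (95% interval -0.41 to 0.32) and -0.42 ± 0.32 in females (-1.10 to 0.26), neither called.

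HSC70-4, in Drosophila the cytosolic cognate, had the smallest SD relative to its mean of the 6 members in both sexes. Male libraries ran from 20024 to 41867 normalised counts with a median of 31128, and female libraries from 23839 to 60667 with a median of 38578. Of the 18 female libraries, 14 were within the male range and 4 above it. The mean was 30789.9 ± 6002 for the 17 male libraries and 38101 ± 9215 for the 18 female ones (SD), a log2 fold change, male over female, of -0.23 ± 0.10 (95% interval -0.43 to -0.03, edgeR adjusted p = 0.0400). This call was the second of the 2 between the sexes, and it did not hold in several other settings. Under scaling by total counts alone the log2 fold change was 0.31 (edgeR adjusted p = 0.0202), of opposite sign. In that scaling the median over all transcripts was 0.53, so HSC70-4 stayed below the median. The value was -0.29 with the opsin covariate (edgeR adjusted p = 0.253) and -0.22 without a filter on low counts (0.0709). Leaving out 1 library ended the call in 9 of 35 cases, which were male ZT0 replicate 1, male ZT4 replicates 1 and 3, male ZT8 replicates 1 and 3, male ZT12 replicates 1 and 2, male ZT20 replicate 1 and female ZT12 replicate 3, with adjusted p-values of 0.0520 to 0.0853.

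Over the day, HSC70-4 was highest at ZT12 by mean in both sexes. It had 28419 and 38130.0 normalised counts in the male pair and 60667, 40179.8 and 51779 in females at that hour. In males the ZT12 mean, 33275 ± 6867 (SD, n = 2), was hardly above that of ZT16, 33086 ± 1699 (n = 3). The lowest mean was at ZT0 in both sexes, with 20024, 25533 and 32412 in males and 25028, 23839 and 39480.5 in females. In females every ZT12 library was above every ZT0 library, and in males the groups overlapped. These hours were picked by their means, so the separation is a description. The share of all transcripts that separate likewise was not counted. The time test did not call HSC70-4 (edgeR adjusted p = 0.978 in males and 0.775 in females). The log2 fold change of dark over light was -0.0030 ± 0.18 in males (95% interval -0.38 to 0.37) and 0.10 ± 0.17 in females (-0.27 to 0.47).

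The members were then compared with each other across libraries. Among 12 relations between the summed cluster, Hsp83, HSC70-3 and HSC70-4 within each sex, on log2(normalised count + 1), none passed a permutation test after Benjamini-Hochberg adjustment. For the cluster and Hsp83 in males, Pearson's r was 0.10 (permutation p = 0.715, adjusted 0.858) and Spearman's rho 0.19 (0.468, adjusted 0.561, n = 17), with r = 0.31 without the 2 libraries farthest from the median. In females r was 0.53 (permutation p = 0.0399, adjusted 0.263) and rho 0.31 (0.213, adjusted 0.366, n = 18). Without the 2 female libraries farthest from the median, which are the high ones, r was -0.02, so the relation rested on them.

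**Figure D4:**
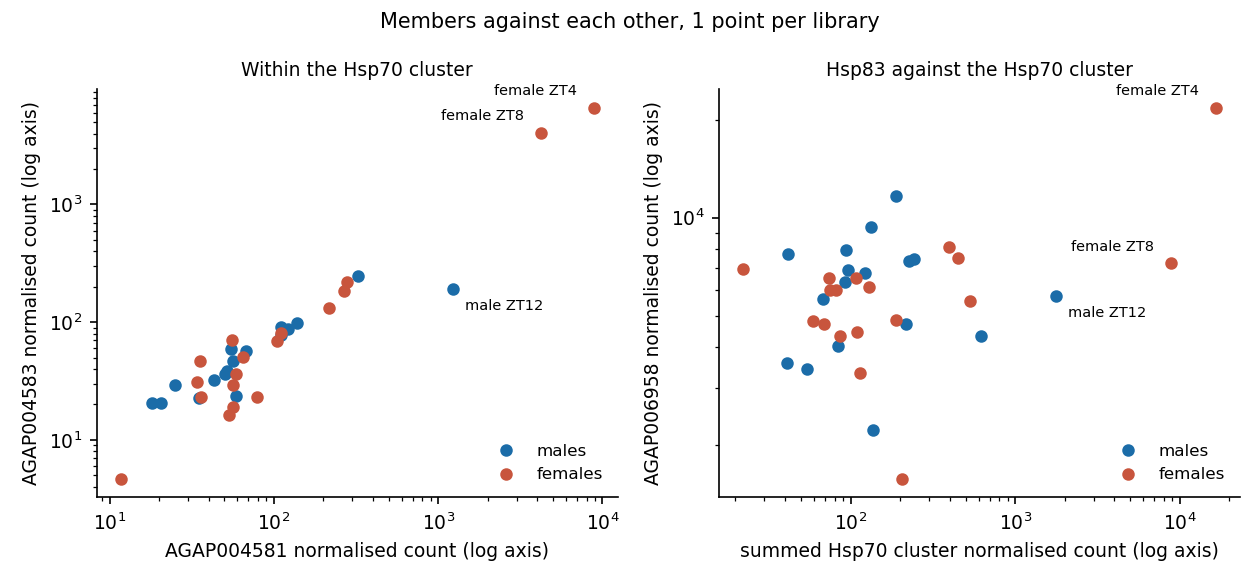
Left, AGAP004583 against AGAP004581, and right, Hsp83 against the summed Hsp70 cluster, in normalised counts on log axes, with 1 point per library. The female ZT4 library is high on both axes of both plots, while the female ZT8 library, at 8810.5 for the cluster, had 7241 of Hsp83.

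The genes most like each profile were found by Pearson's r of log2(CPM + 1) over the 35 libraries and 11070 genes, after the mean of each sex was subtracted. These values describe libraries that share depth and preparation, and no p was attached. For the Hsp70 cluster they were AGAP005548 (r = 0.88) and AGAP005547 (r = 0.88), which the files do not pair with a name. AGAP005547 had 185 normalised counts in male ZT12 replicate 2, 2484 in female ZT4 replicate 1 and 134 in female ZT8 replicate 2. Without those 3 libraries r was 0.67 for AGAP005548 and 0.73 for AGAP005547, over 32 libraries. Hsp83 was rank 273 for the cluster (r = 0.39). For Hsp83 the most alike were AGAP006961 (r = 0.97) and AGAP006959 (r = 0.96), whose identifiers are close to that of Hsp83 and which the files do not name. Without the 3 libraries r was 0.96 and 0.96 for these genes. Estimated counts of Hsp83 were fractional in many libraries, such as 6129.36 in male ZT0 replicate 1. Some of its reads were thus divided among transcripts by the quantification. Which transcripts shared them was not examined, and the part of this in the likeness was not tested. The gene most like HSC70-3 was AGAP001424 (r = 0.89) and the one most like HSC70-4 was AGAP007050 (r = 0.87), and the files name neither.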

How the data were processed

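Per the labels and the study's methods, the authors made cDNA from the pooled RNA with SMART-Seq v4, sequenced it and quantified transcripts with kallisto, and they deposited 1 table of estimated counts per transcript, which need not be whole numbers. Estimated counts of the 35 libraries were rounded to whole numbers, filtered with filterByExpr, scaled with TMM and tested with edgeR 4.0.16 (limma 3.58.1, R 4.3.3). Time was tested within each sex, as time and as dark (ZT16, ZT20) over light (ZT4, ZT8), and sex, male over female, with time in the model. DESeq2 1.42.0 served as an alternative and gave the size factors of the normalised counts. JTK_CYCLE was written with its exact null distribution in Python 3.11.15 (numpy 2.4.6, scipy 1.17.1) and run on counts scaled within each sex. Levels were compared before and after leaving out the 3 libraries with over 1000 normalised Hsp70 counts. The 6 members, the opsin list and Orco were chosen with earlier results of these data known. Every member passed the filter and is described. No sequences are shown. The reference gene table matched 0 AGAP identifiers, so the other chaperone genes were not analysed here. Gene names are those under which the members were selected.

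On simulated counts with 200 changed transcripts, the time tests recovered 139 at 4-fold in males and 144 in females. The dark against light tests recovered 165 in males and 175 in females at 4-fold. The sex test recovered 183 at 2-fold and the interaction 185 at 8-fold, with 3 to 10 false calls in each test. The interaction was simulated at 8-fold only, so 185 does not tell how many smaller differences between time courses it would recover. Recovery of changes carried by lone libraries, as in the Hsp70 cluster, was not measured. Among 34 replicate pairs the lowest chi-square per degree of freedom was 42.3, so no pair agreed within sampling noise. Alternatives covered scaling, the low-count filter, the test, summing by gene, the opsin level, a fit of both sexes, the discarded library, a replicate block and leaving out replicates or libraries.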

Additional observations from a re-analysis of the deposited data

Results flagged for a closer look

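The discarded male ZT12 library of replicate 3, left out of the main comparisons, held a high level of HSC70-3. It had 5709 estimated counts of HSC70-3, which is 424.8 CPM (counts scaled to the library total), against 42.9 to 193 CPM in the other 35 libraries. The same library had 0 counts of AGAP004581, AGAP004582 and AGAP004583, 101 of Hsp83 and 505 CPM of HSC70-4, against 1445 to 4140 CPM of HSC70-4 in the others. It held 13439788 counts in all but had a count for only 10323 transcripts, against 12136 to 13371 in the other libraries.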

How the results depend on the processing

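Of 413 values of single members recomputed under other settings, 398 kept their side of the threshold. So did 142 of 144 without 1 replicate number and 827 of 840 without 1 library. Numbers of members or transcripts called are not among these values and are given below. Direction was less stable: of 567 values of log2 fold changes not past the threshold, 59 changed sign, of which 28 were AGAP004582 between the sexes and 11 Hsp83 between the sexes, with sizes up to 1.13. Of 98 past the threshold, 1 reversed in sign, HSC70-4 between the sexes at 0.31 with total counts only, where the median over all transcripts was 0.53. That scaling also moved the sex calls over all transcripts to 7246 higher and 2449 lower in males, against 4252 and 4247. Without the low-count filter or with the discarded library, the share of all transcripts called between the sexes is not given here. The number of members called between the sexes was 1 without the low-count filter and 1 with the discarded library, against 2. It was 0 with the opsin covariate and 3 with total counts only. For time it was 1 in males and 1 in females with DESeq2, and 2 in females with both sexes in 1 fit. For dark against light in females it was 2 with DESeq2, 2 with both sexes in 1 fit and 1 with counts summed by gene. Leaving out 1 replicate number or library gave 1 to 2 members called between the sexes, 0 to 2 for time in females, 0 to 1 for time in males and 0 in each other comparison. Calls over all transcripts were not counted when 1 library was left out, so those numbers of members have no share beside them. The causes were not tested.

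Over all transcripts, DESeq2 called 633 for time in males, 650 for time in females, 358 for dark against light in males, 306 in females and 82 for the interaction, against 206, 151, 157, 104 and 1 with edgeR. Both sexes in 1 fit called 124 for time in males, 517 for time in females, and for dark against light 101 in males and 250 in females. With the discarded library 126 were called for time and 16 for dark against light in males. Without 1 replicate number 11 to 41 were called for time in males, 10 to 20 for time in females, and for dark against light 38 to 48 in males and 20 to 24 in females. The interaction called 0 to 3 in these edgeR fits. With the opsin covariate 176 were called for dark against light in females and 3935 between the sexes. The labels do not say that a replicate number marks a shared day. Same-numbered libraries of different groups had a mean correlation of 0.0411, against -0.0203 for other numbers, and 24 of 35 libraries correlated best with their own number. The replicate block left the members called at 2 between the sexes and 0 elsewhere, and over all transcripts called 250 for time in males, 148 in females, 194 and 114 for dark against light in males and females, 8670 between the sexes and 0 for the interaction. AGAP004582 was at 0 in 3 male and 5 female libraries, where a count of 0 allows up to 3 counts.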
